A study of Mus musculus with 6 samples.

Results

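CD226 (DNAM-1), CRTAM, CD96 and TIGIT are surface receptors of lymphocytes that bind nectins and nectin-like proteins on neighbouring cells, and CD160 is a receptor of the immunoglobulin superfamily that binds the herpesvirus entry mediator, HVEM. The genes of these 5 receptors were chosen by name, as Cd226, Crtam, Cd96, Tigit and Cd160, and all 5 were found among the 22180 genes of the array that had a row with a single gene symbol. Each of the 5 had 1 row, so no choice between rows was needed. Expression was measured on Affymetrix whole-transcript arrays in invariant natural killer T (iNKT) cells, T cells with a nearly fixed receptor that recognise lipids on CD1d. A first group of 3 arrays came from PLZF_ON mice, in which the transcription factor PLZF is made in a form that stays acetylated, and a second group of 3 came from WT control mice. The design description names replicates 1 and 2 of each group, 4 arrays in all, as those used in the study, and these gave the first comparison, while all 6 arrays gave a second. The labels give no strain, age, organ or way of isolation, nor how the altered PLZF is expressed. The extraction protocol speaks of frozen tissue although the cell type is given as iNKT cells. The labels do not tie the replicates to separate animals either, so the spread behind each p-value may be technical.

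CD226 and TIGIT, together with CD96, compete for the same ligand, the poliovirus receptor encoded by Pvr, and CD226 and TIGIT also bind nectin-2. CD226 signals activation together with the integrin LFA-1, whereas TIGIT carries inhibitory motifs in its tail, and CD96 is mostly described as inhibitory in mouse natural killer cells, although costimulation by it has been described in T cells. CRTAM binds the nectin-like protein CADM1 and appears on activated cytotoxic lymphocytes. CD160 is attached to the membrane by a lipid anchor and shares HVEM with the inhibitory receptor BTLA. In the account that follows Cd226 and Crtam are grouped as activating, Cd96 and Tigit as inhibitory, and Cd160, whose ligand is not a nectin and which has been described as either, stands apart.

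Promoter sequences are printed for 3 of the 5 members, with gene starts from RefSeq (GRCm38.p6). Cd96 and Tigit have 1 start each and Cd160 has 2. No window of Cd226 or Crtam is printed, and theirs were not read for the motifs below. The 250 bases before each start are given 5′ to 3′ on the strand of the gene, which is the minus strand in every case, and capitals mark matches to TGTGGT (the core of RUNX motifs) or GGTGTGA (a T-box motif), searched on both strands as these letters or as ACCACA and TCACACC. No match overlapped another.
Cd96, chr16:46120249-46120498: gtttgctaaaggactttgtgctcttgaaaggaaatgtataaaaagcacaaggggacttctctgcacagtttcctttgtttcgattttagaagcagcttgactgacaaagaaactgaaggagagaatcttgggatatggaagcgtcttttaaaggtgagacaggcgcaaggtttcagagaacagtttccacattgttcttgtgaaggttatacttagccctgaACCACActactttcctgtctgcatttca
Tigit, chr16:43664185-43664434: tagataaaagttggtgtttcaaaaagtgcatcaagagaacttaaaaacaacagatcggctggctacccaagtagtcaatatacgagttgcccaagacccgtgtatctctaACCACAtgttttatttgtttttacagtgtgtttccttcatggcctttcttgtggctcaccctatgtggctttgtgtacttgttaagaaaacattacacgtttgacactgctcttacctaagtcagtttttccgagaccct
Cd160, upstream start, chr3:96829352-96829601: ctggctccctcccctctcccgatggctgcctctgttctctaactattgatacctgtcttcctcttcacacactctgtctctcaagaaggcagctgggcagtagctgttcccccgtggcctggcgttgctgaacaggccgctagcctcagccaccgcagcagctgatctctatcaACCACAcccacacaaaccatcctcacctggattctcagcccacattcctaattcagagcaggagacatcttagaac
Cd160, downstream start, chr3:96814522-96814771: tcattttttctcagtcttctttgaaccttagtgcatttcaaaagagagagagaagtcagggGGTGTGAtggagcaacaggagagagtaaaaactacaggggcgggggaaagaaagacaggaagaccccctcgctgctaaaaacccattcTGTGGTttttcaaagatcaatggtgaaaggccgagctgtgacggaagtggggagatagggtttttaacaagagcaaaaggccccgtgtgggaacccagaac

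Each of the 4 windows held 1 RUNX match, beginning 28 bases before the start of Cd96, 140 before that of Tigit, and 76 and 101 before the upstream and downstream starts of Cd160. The same letters occurred in 14.0% of 32851 windows of that length. The T-box letters occurred in 1 of the 4, the downstream start of Cd160, where they began 189 bases before the start, against 3.33% of all windows. Whether the letters go with the expression values was not tested. Cd226 is not among the windows, and the Tigit values were too low for a change to be read. These matches are a description of the letters and not of binding sites.

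Before the results, the state of the arrays is given. PLZF_ON replicate 3 stood apart, with correlations across rows of 0.895 to 0.898 with the other 5 arrays, which correlated at 0.957 to 0.973 among themselves. Those 5 had SDs over rows of 1.97 to 2.01 and medians of 4.88 to 4.92, against 1.79 and 5.01 in PLZF_ON replicate 3. Markers of immature thymocytes (3 of 4 measured: Rag2, Dntt and Cd24a) had a summed level, as log2 of the sum of unlogged values, of 9.86 in that array, 5.87 and 5.67 in PLZF_ON replicates 1 and 2, and 5.59 to 5.94 in WT. In PLZF_ON replicate 3 that sum came mostly from Cd24a (9.58), with Dntt at 7.19. Rag2, at 4.39 there, was below the background level given below on every array. The 2 CD8 T cell markers, Cd8a and Cd8b1, were also high in PLZF_ON replicate 3, with a summed level of 8.29, against 5.79 and 6.33 in the other PLZF_ON arrays and 5.90 to 6.19 in WT. T cell markers were present throughout, with 9 of 9 measured above a background level on every array. That level was the 95th percentile of 1390 olfactory and vomeronasal genes, and 0 of 4 B cell markers were above it on any array. The T cell marker sum was 12.888 in PLZF_ON replicate 3, against 13.469 to 13.705 in the other arrays. Over the 4 arrays 3 of the 9 were higher and 2 lower at an unadjusted limma p under 0.05, with 0 passing after adjustment. Of all rows 4.88% were higher and 4.53% lower at that p. Their log2 differences were 1.28 (Cd4), 1.34 (Slamf6), 0.51 (Zbtb16), -0.98 (Il2rb) and -1.06 (Cd44), without overlap over those arrays. The part of these shifts in the receptor results was not tested. The T cell receptor segments that define iNKT cells were not checked. That percentile lay between 5.05 and 5.66 by array and is used below, since the deposited values carry no detection flag. The 4-array comparison leaves PLZF_ON replicate 3 out and the 6-array comparison holds it, and its part in the results beyond that was not tested.

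Cd226 was the member with a lower level in PLZF_ON that passed the test across all rows. Its log2 level was 7.84, 7.63 and 7.20 in PLZF_ON replicates 1 to 3, against 9.48, 9.18 and 9.23 in WT replicates 1 to 3. All PLZF_ON arrays lay below all WT arrays, and the gap between the groups was wider than the spread within either. Cd226 encodes the activating receptor that adds to T cell receptor signals and to killing of cells that display the poliovirus receptor or nectin-2. Over the 4 arrays its log2 difference was -1.59 with an SE of 0.16 and 2 arrays a group, a 3.02-fold fall with a 95% interval of 2.29 to 3.99 (limma adjusted p = 0.0426). Over the 6 arrays the log2 difference was -1.74 with an SE of 0.20 and 3 arrays a group, a 3.34-fold fall (limma adjusted p = 0.0454). In the first comparison 40 of 23521 rows (0.17%) passed in either direction, and in the second 22 rows (0.0935%), and the other 4 members were not among them. The share of rows that passed as lower was 0.068% in both. As these are bulk samples, fewer cells that carry the transcript and less of it per cell cannot be told apart.

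The fall in Cd226 kept its direction without any one array, as it must where groups do not overlap, whereas the call did not always hold. Over the 4 arrays, leaving out one array at a time gave differences between -1.74 and -1.45, and the call was lost without PLZF_ON replicate 1 (limma adjusted p = 0.0925), PLZF_ON replicate 2 (0.241) or WT replicate 1 (0.0866), with adjusted p from 0.026 to 0.314 over all 12 alternatives. Such an omission leaves 1 array in a group, whose spread is then taken to be that of the other group. Over the 6 arrays the differences ran from -1.88 to -1.56 without each array in turn, and the limma call held only without PLZF_ON replicate 3 (adjusted p = 0.0148), within a range of 0.00324 to 0.303 over 14 alternatives.

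**Figure D1:**
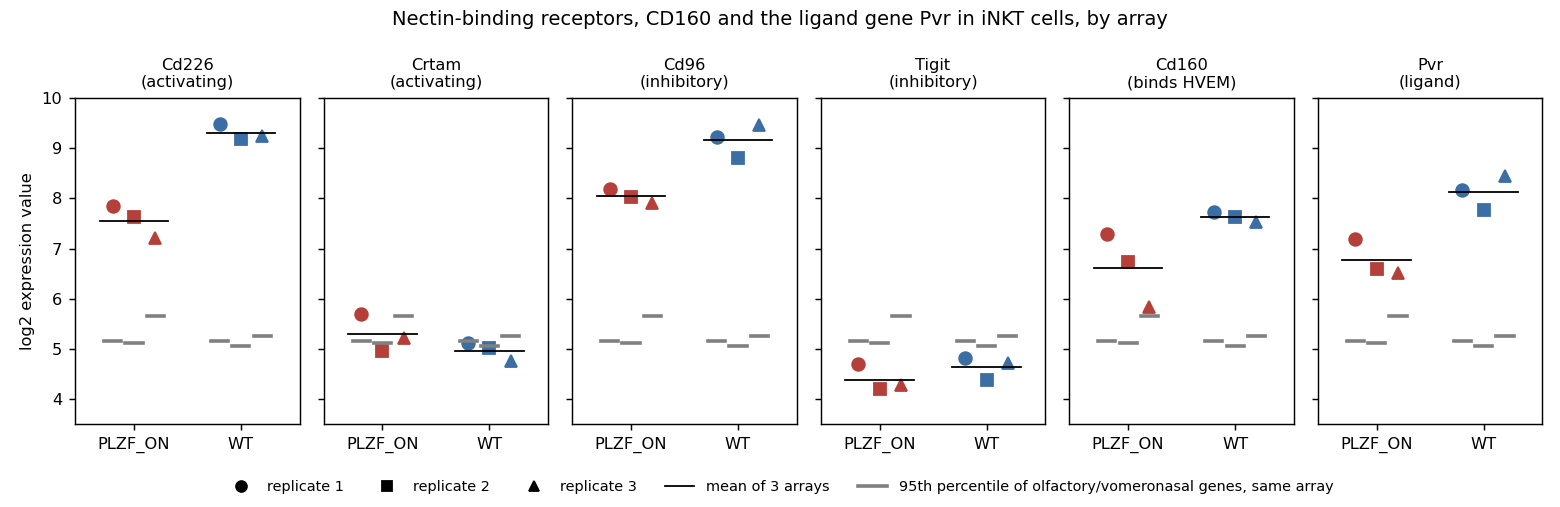
Log2 expression value (vertical axis) of the 5 receptors and of the ligand gene Pvr in each array, PLZF_ON in red and WT in blue, with 1 symbol shape per replicate number. Black lines are means of 3 arrays and grey marks the 95th percentile of olfactory and vomeronasal genes on the same array. Cd226, Cd96, Cd160 and Pvr are lower in every PLZF_ON array than in every WT array, while Tigit lies below the grey mark in all 6 arrays.

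Crtam, the other activating receptor, showed no such separation. Its log2 level was 5.70, 4.96 and 5.22 in PLZF_ON replicates 1 to 3, against 5.12, 5.03 and 4.76 in WT replicates 1 to 3. The groups overlapped, and only PLZF_ON replicate 1 lay above the olfactory and vomeronasal percentile of its own array (5.16). The difference was 0.26 over the 4 arrays (SE 0.25, 95% interval -0.35 to 0.86, limma adjusted p = 0.855) and 0.32 over the 6 (SE 0.22, limma adjusted p = 0.941). A change of up to 1.82-fold upward is inside the first interval, and without PLZF_ON replicate 1 the sign of that difference turned (-0.11).

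Among the inhibitory receptors, Cd96 had lower values in PLZF_ON without passing the test. Its log2 level was 8.20, 8.03 and 7.91 in PLZF_ON replicates 1 to 3, against 9.21, 8.81 and 9.46 in WT replicates 1 to 3. The groups did not overlap, and every array was far above the olfactory and vomeronasal percentile. The difference was -0.90 over the 4 arrays (SE 0.18, 1.87-fold, limma adjusted p = 0.167, unadjusted p = 0.00223) and -1.11 over the 6 (SE 0.20, 2.17-fold, limma adjusted p = 0.154, unadjusted p = 0.000581). By unadjusted p it ranked 312 of 23521 rows in the first comparison and 89 in the second, where Cd226 ranked 35 and 15. The 95% interval of the Cd96 difference ran from -1.34 to -0.47 over the 4 arrays.

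Tigit, the receptor with inhibitory motifs that competes with CD226, was low on every array. Its log2 level was 4.71, 4.20 and 4.28 in PLZF_ON replicates 1 to 3, against 4.81, 4.38 and 4.72 in WT replicates 1 to 3, and all 6 values lay below the percentile of olfactory and vomeronasal genes. The groups overlapped, with a difference of -0.14 over the 4 arrays (SE 0.23, 95% interval -0.71 to 0.42, limma adjusted p = 0.927) and -0.24 over the 6 (SE 0.20, limma adjusted p = 0.941). A change of Tigit could not be read from values this close to background, and the gene overlaps the end of Zbtb20 in the RefSeq gene table, and signal from that neighbour was not separated here. The sign of the 4-array difference turned without PLZF_ON replicate 2 (0.11) or WT replicate 1 (0.075).

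Cd160, the HVEM receptor, was lower in PLZF_ON with a wide spread. Its log2 level was 7.28, 6.73 and 5.84 in PLZF_ON replicates 1 to 3, against 7.74, 7.62 and 7.53 in WT replicates 1 to 3. The WT arrays lay close together (SD 0.10) while the PLZF_ON arrays were spread (SD 0.73), and PLZF_ON replicate 3, the array that stood apart, held the lowest value. The difference was -0.67 over the 4 arrays (SE 0.20, 1.59-fold, limma adjusted p = 0.371, unadjusted p = 0.0165) and -1.01 over the 6 (SE 0.33, 2.02-fold, limma adjusted p = 0.648). Without PLZF_ON replicate 3 the difference was -0.62, and without PLZF_ON replicate 2 in the 4-array comparison it was -0.40.

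In counts, 3 of the 5 members had an unadjusted p under 0.05 as lower in each comparison, against a background of 4.53% of rows over 4 arrays and 3.32% over 6, and 0 as higher, against 4.88% and 2.45%. The same 3, Cd226, Cd96 and Cd160, were the members whose groups did not overlap, where 19.3% of rows over 4 arrays and 6.22% over 6 were lower without overlap. The median difference of all rows was -0.003 over 4 arrays and 0.026 over 6.

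**Figure D2:**
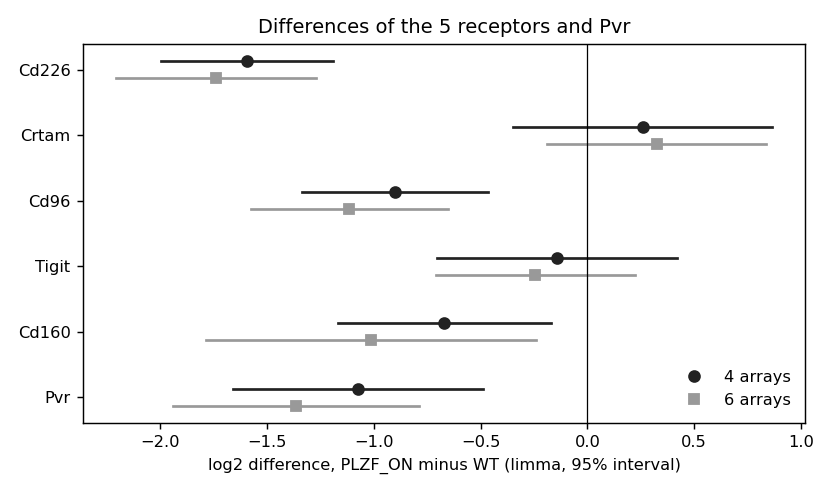
Log2 difference of PLZF_ON minus WT (horizontal axis) for the 5 receptors and Pvr, with 95% intervals from limma, from 4 arrays (black circles) and from 6 (grey squares). The intervals of Cd226, Cd96, Cd160 and Pvr lie below 0 in both comparisons, and those of Crtam and Tigit cross 0. The intervals are not adjusted for the number of rows.

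Activating receptors were then set against inhibitory ones within each array, with every gene expressed as its distance from its own mean over the 3 WT arrays, so that no level of one gene was compared with that of another. Cd226 minus Cd96 was -0.49, -0.54 and -0.85 in PLZF_ON replicates 1 to 3, against 0.125, 0.235 and -0.36 in WT replicates 1 to 3. Cd226 was thus lower relative to Cd96 in every PLZF_ON array than in any WT array, by a mean of -0.62 ± 0.19 in PLZF_ON and 0.00 ± 0.32 in WT (SD, n = 3 each). The separation was narrow, since PLZF_ON replicate 1 (-0.49) and WT replicate 3 (-0.36) lay closer together than the WT SD. How often other pairs of genes separate in this way was not counted. Of single rows 6.22% were lower without overlap over the 6 arrays. For Cd226 minus Cd160 the values were -1.11, -0.78 and -0.30 in PLZF_ON, against 0.07, -0.11 and 0.03 in WT, again without overlap but with the smallest distance in PLZF_ON replicate 3. Crtam minus Tigit went the other way, with 0.66, 0.43 and 0.61 in PLZF_ON, against -0.02, 0.32 and -0.29 in WT, although these 2 genes lay near background. The mean of both activating receptors minus that of both inhibitory ones was therefore near 0, with 0.09, -0.05 and -0.12 in PLZF_ON, against 0.05, 0.28 and -0.33 in WT. Over the 4 arrays alone that balance differed by -0.15 between the groups, and no test was made of it. Its nearness to 0 rests on Crtam and Tigit, whose values were too near background for a change to be read.

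**Figure D3:**
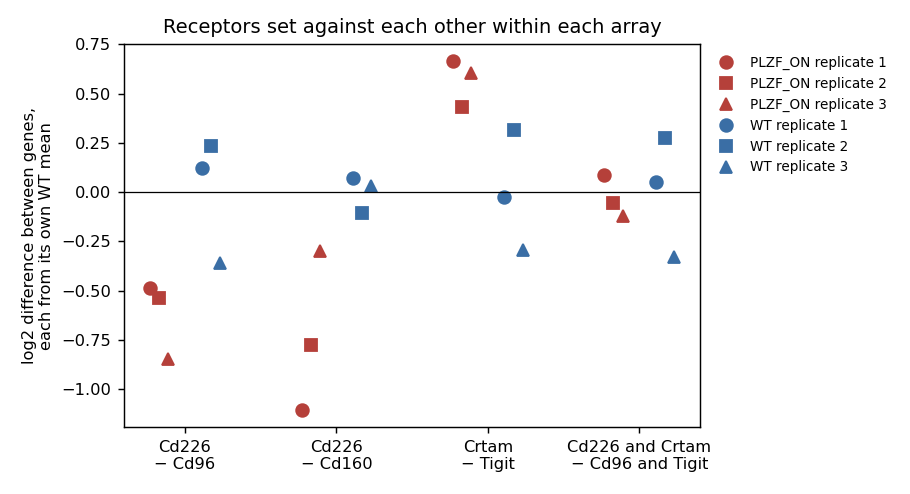
Differences between receptors within each array (vertical axis, log2, each gene taken from its own mean over the 3 WT arrays), PLZF_ON in red and WT in blue. Cd226 minus Cd96 lies between -0.85 and -0.49 in PLZF_ON and between -0.36 and 0.235 in WT, while the balance of both activating against both inhibitory receptors overlaps between the groups.

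Markers of natural killer cells are given beside the receptors. Of 7 listed markers 6 were measured, with 2 higher and 4 lower in PLZF_ON over the 4 arrays and 3 each over the 6. By limma 0 passed, with 1 and 2 at an unadjusted p under 0.05, all lower (backgrounds 4.53% and 3.32%). The summed log2 level of the 6 markers was 10.6, 8.29 and 10.4 in PLZF_ON replicates 1 to 3, against 10.99 to 11.1 in WT. Klrb1c, which encodes NK1.1 and is also carried by many iNKT cells, was at 8.63, 7.25 and 7.78 in PLZF_ON, against 10.24, 10.02 and 9.30 in WT. Ncr1, a receptor that defines natural killer cells, was at 7.65, 4.80 and 8.25 in PLZF_ON, against 5.80, 6.68 and 7.48 in WT, and lay below the background percentile in PLZF_ON replicate 2. Between PLZF_ON replicates 1 and 2, the PLZF_ON arrays farthest apart in the marker list, the log2 levels differed by 0.22 for Cd226, 0.17 for Cd96, 0.55 for Cd160, 0.51 for Tigit and 0.74 for Crtam, each lower in replicate 2. The 2 measured genes of the list for gamma-delta T cells, Sox13 and Blk, had a summed level of 6.70 to 7.01 in PLZF_ON, against 7.31 to 8.43 in WT. Blk passed limma as lower over the 4 arrays (-2.71, adjusted p = 0.0206) and not over the 6 (-2.08, adjusted p = 0.309). Sox13 passed in neither (-0.59, limma adjusted p = 0.283, and -0.43 over the 6). The receptor genes of gamma-delta T cells were not measured here, so Sox13 and Blk alone cannot place the difference in that cell type. The part of either cell type in the receptor results was not tested.

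The genes of the receptors' ligands were read in the same samples. Pvr, the shared ligand of CD226, CD96 and TIGIT, had lower values in PLZF_ON. Its log2 level was 7.19, 6.59 and 6.51 in PLZF_ON replicates 1 to 3, against 8.16, 7.77 and 8.45 in WT replicates 1 to 3, without overlap. The difference was -1.07 over the 4 arrays (SE 0.24, 2.11-fold, limma adjusted p = 0.207, unadjusted p = 0.0041) and -1.36 over the 6 (SE 0.25, 2.57-fold, limma adjusted p = 0.159), so that it did not pass. By limma 0 of the 7 ligand genes passed in either comparison, and Pvr alone had an unadjusted p under 0.05 as lower (backgrounds 4.53% and 3.32%), with a median difference of 0.10 over the 4 arrays and 0.065 over the 6. Nectin2, the other ligand of CD226 and TIGIT, Nectin3, and Cadm1, the ligand gene of CRTAM, lay below the background percentile on all 6 arrays. Nectin4, above it on 2 arrays, had a difference of 0.31 over the 4 arrays (SE 0.13, limma adjusted p = 0.535) and 0.21 over the 6. Nectin1 had a difference of -0.24 over the 4 arrays (SE 0.13, limma adjusted p = 0.67) and -0.23 over the 6. Tnfrsf14, which encodes HVEM, had 0.24 over the 4 arrays (SE 0.15, limma adjusted p = 0.743) and 0.25 over the 6.

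In the HVEM network, which holds HVEM, its receptor BTLA and the lymphotoxin ligands, 0 of 6 genes passed limma in either comparison, with 3 at an unadjusted p under 0.05 over 4 arrays (1 higher and 2 lower, backgrounds 4.88% and 4.53%) and 1 lower over 6 (3.32%). Btla, the inhibitory partner of HVEM beside CD160, was at 7.81, 7.97 and 6.26 in PLZF_ON replicates 1 to 3, against 6.97, 7.02 and 6.04 in WT replicates 1 to 3. Replicate 3 was low in both groups, so the 4-array difference of 0.89 (SE 0.14, limma adjusted p = 0.0986) compares with 0.67 over the 6 (SE 0.47, limma adjusted p = 0.941). Cd160 and Btla therefore had differences of opposite sign over the 4 arrays. Ltb, a lymphotoxin subunit, had lower values in PLZF_ON (8.97, 8.36 and 8.70) than in WT (10.2, 9.92 and 9.26), with a difference of -1.37 over the 4 arrays (SE 0.23, limma adjusted p = 0.115) and -1.10 over the 6.

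Of the 19 measured partner and proximal signalling genes 0 passed limma, with 4 at an unadjusted p under 0.05 over 4 arrays (1 higher and 3 lower, backgrounds 4.88% and 4.53%) and 2 lower over 6 (3.32%), and the median difference was -0.04 over the 4 arrays and -0.10 over the 6. Itgal and Itgb2, the chains of LFA-1 with which CD226 associates, were at 10.39, 10.37 and 9.66 and at 9.97, 9.85 and 8.77 in PLZF_ON replicates 1 to 3, against 10.56, 10.54 and 10.53 and 10.03, 9.91 and 9.74 in WT. Among the 4 genes with the smallest p were the phosphatases Ptpn6 (SHP-1, difference -0.46, limma adjusted p = 0.434, and -0.60 over the 6) and Inpp5d (SHIP-1, -0.39, limma adjusted p = 0.505, and -0.64 over the 6), which act downstream of inhibitory receptors. The others were the adaptor Sh2d2a (-0.52, limma adjusted p = 0.419, and -0.82 over the 6) and the phospholipase Plcg1 (0.37, limma adjusted p = 0.461, and 0.11 over the 6).

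Inhibitory and costimulatory receptors outside the nectin family were set beside the members, the first in a list of 9 receptor genes and Cd200, which encodes a ligand. Of these 10 genes 7 had higher values in PLZF_ON over the 4 arrays, with a median difference of 0.33, 4 of them at an unadjusted p under 0.05 as higher (background 4.88%) and Btla among them, and 0 passed limma. Over the 6 arrays 9 had higher values, with a median of 0.39, and 2 of them (Cd200 and Pdcd1, background 2.45%) had an unadjusted p under 0.05, with 0 passing limma. Cd200, whose receptor inhibits myeloid cells, had the largest difference of that list, 1.74 over the 4 arrays (SE 0.27, limma adjusted p = 0.102) and 1.27 over the 6. Pdcd1, which encodes PD-1, had 1.24 over the 4 (SE 0.26, limma adjusted p = 0.186) and 0.96 over the 6, and Cd5, a restraint on T cell receptor signals, 0.77 (SE 0.17, limma adjusted p = 0.198) and 0.51. Of 10 costimulatory receptors 6 had higher and 4 lower values over the 4 arrays, with a median of 0.13, 3 at an unadjusted p under 0.05 as higher (background 4.88%) and 1 as lower (4.53%), and 0 passed limma. Over the 6 arrays the tally turned, with 4 higher and 6 lower, a median of -0.08, and at an unadjusted p under 0.05 0 as higher and 1, Klrk1, as lower, with 0 passing limma. Over the 4 arrays Cd28 had 0.64 (SE 0.14, limma adjusted p = 0.192), Slamf1 0.59 (SE 0.16, limma adjusted p = 0.315) and Tnfrsf4 (OX40) 0.39 (SE 0.14, limma adjusted p = 0.471), and over the 6 these differences were 0.35, 0.15 and 0.40. Klrk1, which encodes the activating receptor NKG2D, had -2.19 over the 4 (SE 0.76, limma adjusted p = 0.432) and -1.97 over the 6, with 9.26, 6.69 and 8.85 in PLZF_ON replicates 1 to 3, against 10.37, 9.96 and 10.38 in WT. Of these Klrk1 values the lowest was that of PLZF_ON replicate 2.

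**Figure D4:**
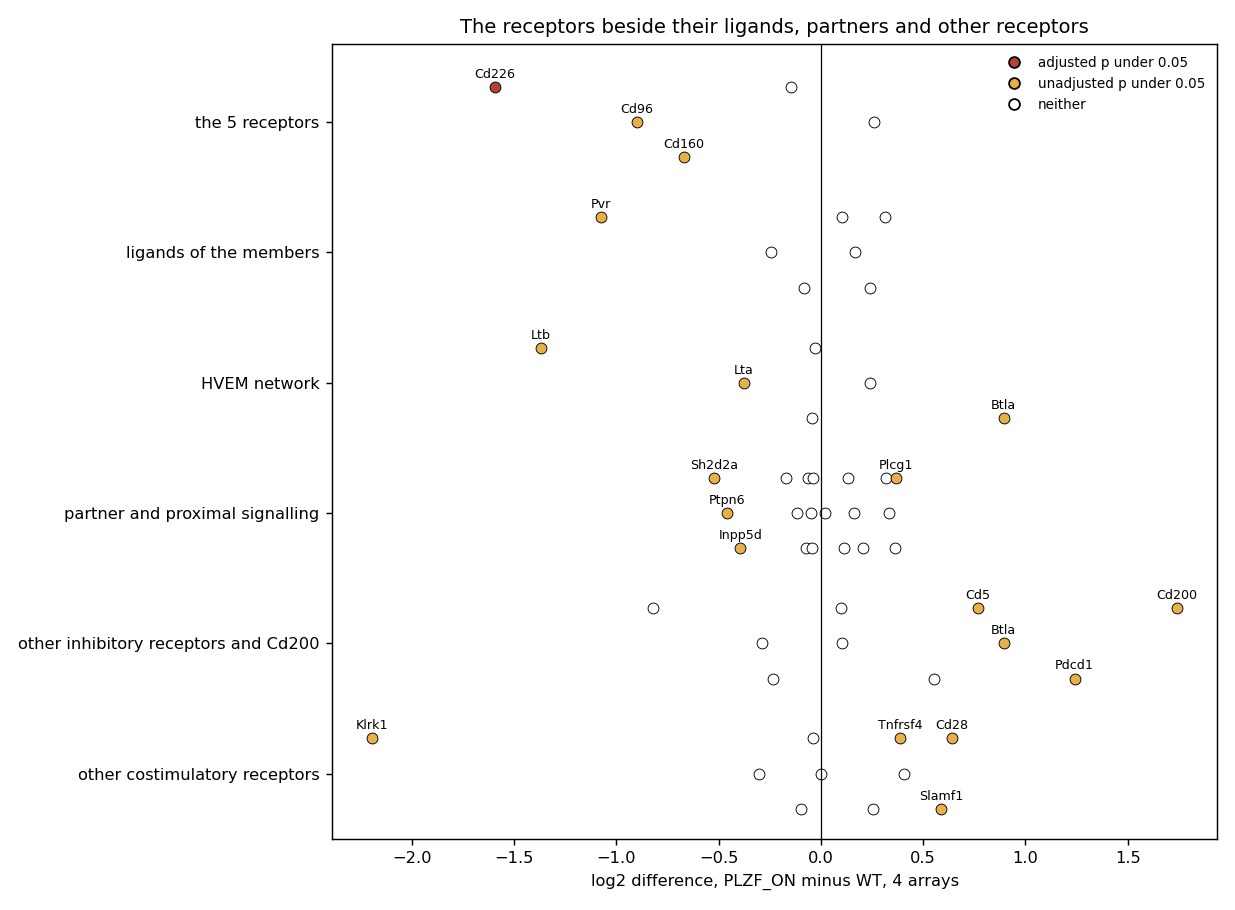
Log2 difference of PLZF_ON minus WT over 4 arrays (horizontal axis) for the 5 receptors and for the genes of 5 lists, 1 point per measured gene. Red marks an adjusted p under 0.05 over all rows, which Cd226 alone had among these genes, orange an unadjusted p under 0.05 with the gene named, and white neither.

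The genes whose profile over the 6 arrays was most like that of each member were taken from about 3312 genes of at least median level with a range of 1 or more on the log2 scale. Since both groups enter the profile, these correlations restate the difference between the groups as well as the likeness within them, and all share the same 6 arrays. Nearest to Cd226 were Bmp7, a growth factor of the TGF-beta superfamily (r = 0.998), Itgae, the CD103 integrin chain (r = 0.995), and Mgat4a, a glycosyltransferase (r = 0.992), and 167 of the candidates had r above 0.9. Nearest to Cd96 were Lyst, a regulator of lysosomal trafficking (r = 0.991), the phosphatase gene Ppm1j (r = 0.99) and Ppp3cc, a catalytic subunit of calcineurin (r = 0.989). Nearest to Cd160 were Lfng, a glycosyltransferase that acts on Notch (r = 0.998), Ifi213 (r = 0.995) and the GTPase gene Rab8b (r = 0.995), and 457 candidates had r above 0.9, more than for any other member. For Crtam and Tigit the nearest were Mad2l1bp, Zc3h12d and Acad11 (r = 0.974, 0.952 and 0.945), and Ifi208, Coa4 and Rps27 (r = 0.99, 0.959 and 0.925), profiles that rest on member values near background.

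Among the members themselves, r over the 6 arrays was 0.95 between Cd226 and Cd96, 0.885 between Cd226 and Cd160 and 0.795 between Cd96 and Cd160. Crtam had negative correlations with Cd226 (-0.44), Cd96 (-0.52) and Cd160 (-0.14). The 3 members with lower values thus followed each other over these arrays, in an order set mainly by genotype, with 6 points each and no test.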

How the data were processed

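The authors deposited log2 values for each feature of the array and made them with RMA, which the submitters' processing notes name without a version. RMA corrects background, equalises the distributions of probe values across arrays and summarises probes, and understates differences of dim genes. The deposited values were still not equal in distribution, with the smallest spread in PLZF_ON replicate 3. Neither genome build nor array annotation is stated in the labels. The values were not transformed further. Of 41345 rows, 23521 had a single gene symbol in the platform annotation and were all tested. The genotype effect was estimated in R 4.3.3 with lmFit and eBayes of limma 3.58.1 (two-sided, Benjamini-Hochberg at 0.05 over those rows), for 4 and for 6 arrays. A gene with several rows was represented by its brightest row by mean over 6 arrays. The named genes were the 5 members, up to 4 genes per list with the smallest p, and the 3 genes most like each member by r. Nectin1, Nectin2, Nectin3, Cadm1, Tnfrsf14, Itgal, Itgb2, Klrb1c, Ncr1 and marker genes were also given, chosen after their values were seen where the rule does not hold them. Members and lists were chosen with earlier results of these data known. The fit was tested on simulated data. Alternative settings were a block for replicate number, each array left out, brighter rows, a variance trend, quantile normalization, median centring, all deposited rows, averaged rows per gene, and array weights. The precision is limited by the number of arrays. Figures were drawn with matplotlib 3.10.9.

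Same-numbered replicates of the groups were not treated as pairs, since the labels give no shared source.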

Additional observations from a re-analysis of the deposited data

How the results depend on the processing

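The difference of Cd226 kept its sign under every alternative run, which for omitted arrays was fixed in advance by groups that did not overlap. The replicate block, brighter rows, variance trend, all deposited rows and averaged rows left that difference unchanged, at -1.595 over 4 arrays and -1.74 over 6. Quantile normalization again over 6 arrays gave -1.63 for Cd226, against -1.74, and -0.997 for Cd96, against -1.115. Over 4 arrays the limma call on Cd226 was also lost with all 41345 deposited rows tested (-1.59, adjusted p = 0.314). Over 6 arrays it was lost with a variance trend (-1.74, adjusted p = 0.0584), median centring (-1.76, adjusted p = 0.0735) and all deposited rows (-1.74, adjusted p = 0.207). It was also lost there without any array other than PLZF_ON replicate 3, with differences from -1.883 to -1.563 over all 6 omissions and adjusted p from 0.0754 without PLZF_ON replicate 1 to 0.303 without WT replicate 1. Cd96 passed limma under 1 of 26 alternatives, array weights over 6 arrays (-1.01, adjusted p = 0.0374), as did Pvr (-1.20, adjusted p = 0.0448). Cd160, whose groups did not overlap either, kept its sign and passed under none, with limma adjusted p from 0.198 up. The Tigit and Crtam differences turned sign only without single arrays over the 4, where they ran from -0.114 to 0.629 for Crtam and from -0.398 to 0.112 for Tigit (0.075 without WT replicate 1), and Tigit was left out of the fit of brighter rows. The balance of activating against inhibitory receptors was -0.146 in the main setting over 4 arrays. It was -1.45 for Cd226 against Tigit alone, which mostly restates the fall of Cd226 since Tigit lay below the background percentile. Under the other 9 alternatives the balance lay between -0.259 (without WT replicate 1) and -0.029 (all 6 arrays). The pooled SD within groups was 0.133. With 2 arrays a group, leaving out 1 cannot move the balance by more than that SD. Averaging the rows of a gene cannot move it either, since each member had 1 row. Staying within the SD under those settings was therefore fixed in advance.

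The count of 40 rows passing over 4 arrays was 101 with the replicate number as a block, 0 with all deposited rows (3042 at an unadjusted p under 0.05, smallest limma adjusted p = 0.252), and between 0 and 106 without single arrays, with 1803 at an unadjusted p under 0.05 where it was 0, without PLZF_ON replicate 2. The count of 22 over 6 arrays was 5 with median centring, 259 with array weights, 0 with all deposited rows (2100 at an unadjusted p under 0.05), and between 0 and 107 without single arrays. With the block Cd226 passed in both comparisons (limma adjusted p = 0.026 and 0.0386), and no member changed its call. Deviations of same-numbered arrays from their group means correlated at 0.132 over 4 arrays and at 0.092, 0.253 and 0.238 over 6, and PLZF_ON replicate 1 correlated better with WT replicate 2 (0.124) than with WT replicate 1. Tigit and Crtam lay too near background for a change to be read.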
